A study of Mus musculus with 9 samples.

Results

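10 genes of the transforming growth factor beta (TGF-beta) pathway were followed by name through a mouse kidney RNA-seq table: the ligands Tgfb1, Tgfb2 and Tgfb3, the receptors Tgfbr1, Tgfbr2 and Tgfbr3, the signal carriers Smad2 and Smad3, the inhibitor Smad7, and the TGF-beta induced gene Tgfbi. All 10 had a row among the 22161 genes of the table, and all 10 passed the filter on low values that left 15740 genes for testing. The kidneys came from 10-week-old C57BL/6 mice in 3 groups of 3 mice. The double knockout mice (DKO) carried Ift88fl/fl, Pkd2fl/fl, Pax8rtTA and TetO-cre, the Pkd2 knockout mice (KO) carried Pkd2fl/fl, Pax8rtTA and TetO-cre, and the controls (WT) are labelled wild type with no alleles listed. All groups, WT included, had doxycycline in their drinking water at 2 mg/ml, starting on postnatal day 28 and lasting 2 weeks. Doxycycline switches on the cre through Pax8rtTA, which is active in tubule cells, so the deletion is aimed at the tubule epithelium and not at fibroblasts or macrophages. Pkd2 codes for the cation channel polycystin-2, whose loss causes autosomal dominant polycystic kidney disease. The product of Ift88 belongs to the intraflagellar transport machinery, without which cilia are not assembled.

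TGF-beta ligands are secreted in a latent complex and are released by integrins and proteases. The freed ligand brings the type II receptor (Tgfbr2) and the type I receptor (Tgfbr1) together, with the co-receptor betaglycan (Tgfbr3) aiding the capture of ligand. The active type I receptor phosphorylates Smad2 and Smad3, which enter the nucleus in complexes with Smad4. Such complexes bind DNA at short elements such as CAGAC. Smad7 is itself a target gene and blocks the type I receptor. In the kidney the pathway is best known for driving the deposition of extracellular matrix in fibrosis. The libraries measure messenger RNA, and neither Smad phosphorylation nor protein was measured in the data used here.

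The promoters of the ligand Tgfb1 and the target gene Tgfbi are shown because both genes had their highest values of all 9 mice in KO 1 and KO 2. Both were taken from RefSeq (GRCm38.p6, plus strand) and end before the gene's start, with letters in capitals where the Smad element CAGAC, or its reverse GTCTG, was found. The Tgfb1 stretch is chr7:25686752-25687001, and the Tgfbi stretch is chr13:56609336-56609522.

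Tgfb1: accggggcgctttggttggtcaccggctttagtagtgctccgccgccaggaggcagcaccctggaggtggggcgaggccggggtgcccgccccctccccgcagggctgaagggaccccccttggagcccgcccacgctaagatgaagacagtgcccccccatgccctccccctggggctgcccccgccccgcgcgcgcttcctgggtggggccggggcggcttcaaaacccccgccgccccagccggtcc

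Tgfbi: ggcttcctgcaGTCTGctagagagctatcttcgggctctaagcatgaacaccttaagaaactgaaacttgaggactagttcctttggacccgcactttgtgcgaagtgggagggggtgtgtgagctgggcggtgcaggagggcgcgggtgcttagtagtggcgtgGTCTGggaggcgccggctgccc

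The 250 bases before the Tgfb1 start held no CAGAC on either strand and had a GC content of 75.2%. The 250 bases before the Tgfbi start had a GC content of 62.4% and held the element at 239 and 85 bases before the start, and the last 63 of them are left out above because GENCODE M21 places them within the gene. Across 32536 promoters of that length, 42.2% held CAGAC on at least 1 strand. The AP-1 motif TGANTCA, which is the same read on either strand, was found in 6.73% of promoters and in none of the 7 promoter entries that matched 6 members outside chromosome 18. CAGAC was found in 4 of those entries, those of Tgfb2, Tgfbr2, Tgfbi and 1 of the pair for Tgfbr1. A match or its absence describes the letters of these windows only.

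The libraries held 40454151 to 42874467 normalized counts each, and 7 of them gave back 37056843 to 47314829 whole reads. The targeted genes followed the labels. Pkd2 stood at 4687 ± 789 in DKO and 5118 ± 414 in KO, against 14095 ± 375 normalized counts in WT (SD, n = 3 each), and Ift88 stood at 752 ± 71.4 in DKO against 1140 ± 66.0 in KO and 1085 ± 41.0 in WT. Proximal tubule markers, the defining genes of kidney cortex, were abundant in every library, with a summed level of 8 genes between 560391 and 647840 normalized counts. Of these 8, 1 was called higher in KO than in WT (beside 2.40% of all genes), Slc5a12, at a log2 fold change of 1.04 (limma adjusted p = 0.0252). At an unadjusted limma p under 0.05, 1 was higher and 2 lower in KO than in WT (37.5%, beside 18.0% of all genes). In DKO, 3 were higher than in KO (37.5%, beside 10.7%) and 2 higher than in WT (25.0%, beside 11.7%). Markers of other tubule segments also differed between groups. All 6 thick ascending limb markers were lower in KO than in WT without overlap (beside 25.2% of all genes), 4 of them called (beside 2.40%). Their median log2 fold change was -0.80, with sums of 215406 to 287518 in DKO, 163675 to 202789 in KO and 350585 to 370384 in WT. Of the 8 distal tubule and collecting duct markers 2 were called lower in KO than in WT, with a median of -0.53. None of either list was called in DKO against KO or in DKO against WT. At an unadjusted limma p under 0.05, 5 thick ascending limb markers were lower in DKO than in WT (83.3%, beside 11.7% of all genes). In DKO against KO 4 of them were higher (66.7%, beside 10.7% of all genes). Of the distal tubule and collecting duct markers 2 were lower in DKO than in WT (25.0%) and 1 higher in DKO than in KO (12.5%). The part of these segments in the KO values of the members was not tested. KO 3 stood apart from the other KO mice. Its 8 erythroid and platelet markers summed to 6539 normalized counts, against 342 to 1344 in the other 8 libraries, and its mouse name carries another prefix than KO 1 and KO 2. The 10 macrophage and monocyte markers of KO 3 summed to 6263, against 8541 in KO 1 and 8211 in KO 2. Adipose and adrenal markers summed to 3474 in KO 3, 1943 in KO 1 and 596 in KO 2, against 556 to 1458 in DKO and WT mice. For these markers KO 1 and KO 2 were thus not alike. For the members and the called pathway genes, results that turn on KO 3 are given with and without it.

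None of the 10 members passed the test in any comparison. The test was limma on log2(normalized count + 1) across all 15740 genes, called at a Benjamini-Hochberg adjusted p under 0.05. For DKO against KO, 0 of 10 members were called where 0.394% of all genes were, and for DKO against WT 0 of 10 where 0.229% were. For KO against WT, 0 of 10 were called where 2.40% of all genes were. With edgeR and with DESeq2 on the 7 libraries with recovered reads, 0 of 10 members were also called in each comparison. Those libraries leave out WT 1 and KO 1, and KO 1 had the highest Tgfb1, Tgfbr1 and Tgfbi of all mice. The main count of 0 is close to the share of all genes. At an unadjusted p under 0.05, edgeR had 1 member in DKO against KO, 0 in DKO against WT and 2 in KO against WT, and DESeq2 had 1, 0 and 1.

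At an unadjusted limma p under 0.05, Tgfb1, Tgfbr2 and Tgfbi were lower in DKO than in KO, which is 3 of 10 members beside 10.7% of all genes. In DKO against WT only Smad2 passed that threshold, being higher in DKO, beside 11.7% of all genes. In KO against WT it was passed by Tgfbr2, Smad2 and Tgfbi, all higher in KO, beside 18.0% of all genes. The DKO and KO values did not overlap for 2 members (Tgfbr2 and Tgfbi), and this held for 15.2% of all genes. The DKO and WT values did not overlap for 1 member (Smad2), against 18.3% of all genes. The KO and WT values did not overlap for 2 members (Tgfbr2 and Smad2), against 25.2% of all genes, which is near the share of members. The median log2 fold change of the 10 members was -0.18 for DKO over KO, -0.07 for DKO over WT and 0.17 for KO over WT, whereas that of all genes was 0.00, -0.00 and 0.00. These comparisons share libraries in pairs, so a high or low KO mouse moves both comparisons that use KO. In whole kidney, fewer cells of a type and less RNA per cell cannot be told apart.

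**Figure D1:**
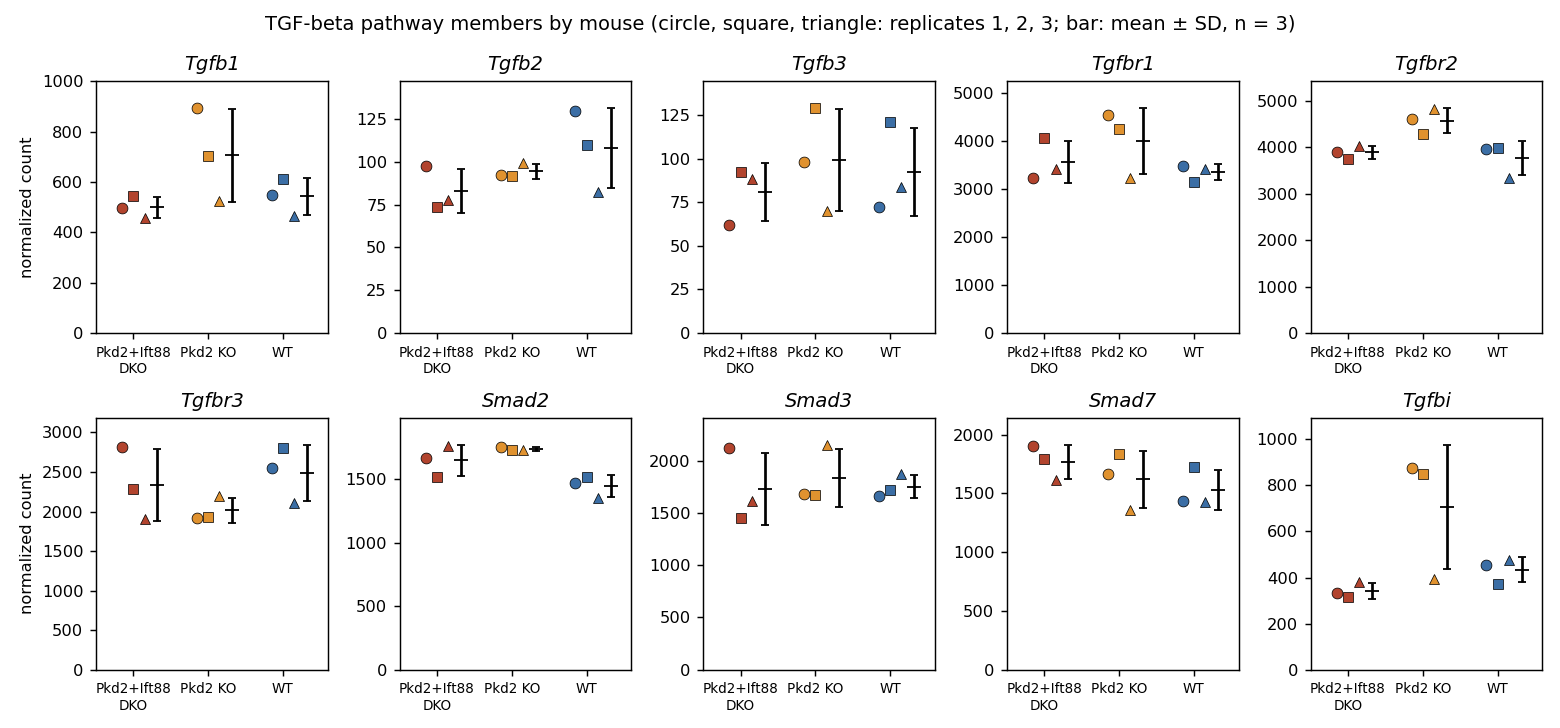
Normalized counts (vertical axes, each starting at 0) of the 10 members in every mouse of the DKO, KO and WT groups, with circles, squares and triangles for replicates 1, 2 and 3 and a bar for the mean ± SD (n = 3). Tgfbi at 876 and 848 and Tgfb1 at 894 and 702 stood highest in KO 1 and KO 2, while KO 3, at 395 and 524, lay within the WT range of both genes.

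To compare levels between genes, normalized counts were divided by the length of each gene's merged exons in GENCODE M21. On this scale of normalized counts per kilobase, the type I and type II receptors were the most abundant members in all 3 groups. Tgfbr1 averaged 545 in DKO, 613 in KO and 513 in WT, and Tgfbr2 averaged 475, 559 and 460 in the same groups. In WT they were followed by Tgfbr3 at 380, Smad7 at 338, Smad3 at 316 and Smad2 at 164. Below these came Tgfbi at 115 and the ligand Tgfb1 at 108 per kilobase in WT, and the ligands Tgfb3 at 27.3 and Tgfb2 at 18.6 were lowest. The order was not resolved between neighbours whose WT mice overlapped, which were Tgfbr1 and Tgfbr2, Tgfbr2 and Tgfbr3, Tgfbr3 and Smad7, Smad7 and Smad3, Tgfbi and Tgfb1, and Tgfb3 and Tgfb2. Smad3 stood above Smad2, Smad2 above Tgfbi, and Tgfb1 above Tgfb3 in every WT mouse. Tgfb1 was thus the most abundant ligand transcript, at 99 per kilobase in DKO, 140 in KO and 108 in WT. No member shares exon bases with another gene of the table in that annotation.

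Tgfb1 (chr7:25687002-25705077, GRCm38), the ligand best known for driving fibrosis, had 497, 544 and 457 normalized counts in DKO mice, against 894, 702 and 524 in KO mice and 550, 614 and 466 in WT mice. KO 1 and KO 2 were above every other mouse, and KO 3 lay inside the range of DKO and WT. The log2 fold change of DKO over KO was -0.47 ± 0.19 (SE; 95% interval -0.89 to -0.05; limma adjusted p = 0.391), and that of KO over WT was 0.35 ± 0.19 (interval -0.07 to 0.77; adjusted p = 0.353). DKO and WT differed by -0.12 ± 0.19 (interval -0.54 to 0.30; adjusted p = 0.854). Without KO 3 the same log2 fold changes were -0.67 for DKO over KO (adjusted p = 0.0851) and 0.55 for KO over WT (adjusted p = 0.0958). Without KO 1 they were -0.28 (adjusted p = 0.913) and 0.17 (adjusted p = 0.727), so the size of both rested on single KO mice, and none of these passed the threshold. The summed level of the 10 macrophage and monocyte markers was also highest in KO 1 and KO 2. It was 5164, 4955 and 5917 normalized counts in DKO, 8541, 8211 and 6263 in KO and 5370, 5914 and 6134 in WT, with none of the 10 at 0 in any library, and unlike for Tgfb1 the KO 3 sum lay above every DKO and WT sum. Single markers differed from the sum, since Cd14 was 277 and 183 normalized counts in KO 1 and KO 2 against 297 to 561 in WT, and Csf1r was highest in KO 3. None of the 10 was called. At an unadjusted limma p under 0.05, 6 were lower in DKO than in KO (60.0%, beside 10.7% of all genes). In KO against WT 5 were higher and 1 lower (60.0%, beside 18.0% of all genes). Their part in the Tgfb1 values was not tested.

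The other two ligand genes were low and differed little. Tgfb2 (chr1:186622792-186705989), a ligand with roles in kidney and heart development, had 97.7, 73.4 and 77.6 normalized counts in DKO, 92.4, 91.6 and 99.4 in KO and 130, 110 and 82.7 in WT. Its mean was thus lowest in DKO, but the lowest WT mouse lay inside the DKO range, and DKO over WT was -0.36 ± 0.20 on the log2 scale (interval -0.81 to 0.09; limma adjusted p = 0.530). Tgfb3 (chr12:86056745-86079041), known for its role in palate closure, had 62.1, 92.4 and 88.2 normalized counts in DKO, 98.3, 129 and 70.2 in KO and 72.3, 121 and 83.8 in WT. Its groups overlapped throughout, and no comparison exceeded -0.27 ± 0.28, the log2 fold change of DKO over KO (interval -0.90 to 0.37; adjusted p = 0.840). The coefficient of variation of Tgfb3 among mice was 20.3% in DKO, 29.6% in KO and 27.3% in WT, the widest of the ligands in each group.

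Of the receptors, Tgfbr2 (chr9:116084293-116175360), the type II receptor that binds ligand first, varied least among the mice of DKO and of KO. It had 3911, 3740 and 4022 normalized counts in DKO and 4601, 4290 and 4834 in KO, against 3964, 3996 and 3343 in WT. Every KO mouse stood above every DKO and every WT mouse, KO 3 being the highest of all. The difference was small, 0.28 ± 0.08 on the log2 scale for KO over WT (interval 0.09 to 0.47), which is 1.22-fold, and -0.23 ± 0.08 for DKO over KO (interval -0.42 to -0.04). Neither passed the correction over all genes (limma adjusted p = 0.120 and 0.337). DKO and WT differed by 0.05 ± 0.08 (interval -0.14 to 0.24; adjusted p = 0.861), an interval that leaves out changes as large as the KO estimate.

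Tgfbr1 (chr4:47353222-47414931), the kinase that phosphorylates Smad2 and Smad3, had 3224, 4060 and 3410 normalized counts in DKO, 4534, 4245 and 3234 in KO and 3486, 3156 and 3419 in WT. As for Tgfb1, KO 1 and KO 2 were above all other mice, and KO 3 lay low. KO over WT was 0.24 ± 0.13 on the log2 scale (interval -0.05 to 0.54; limma adjusted p = 0.370), with 0.39 without KO 3 (adjusted p = 0.0885) and 0.15 without KO 1 (adjusted p = 0.711). Tgfbr3 (chr5:107106570-107289629), the co-receptor betaglycan, ran the other way, with 2812, 2284 and 1911 normalized counts in DKO, 1916, 1928 and 2197 in KO and 2557, 2806 and 2103 in WT. Its KO mean was the lowest of the 3 groups, yet KO 3 exceeded WT 3. KO over WT was -0.30 ± 0.15 (interval -0.64 to 0.04; adjusted p = 0.334), and DKO over KO was 0.20 ± 0.15 (interval -0.14 to 0.54; adjusted p = 0.743).

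Smad2, which with Smad3 carries the signal to the nucleus and lies on chromosome 18, had 1661, 1519 and 1762 normalized counts in DKO and 1750, 1727 and 1727 in KO, against 1471, 1513 and 1349 in WT. All 6 mutant mice stood above all 3 WT mice, the KO mice lay within a coefficient of variation of 0.757%, and the margin between DKO 2 and WT 2 was narrow. The log2 fold change was 0.19 ± 0.08 for DKO over WT (interval 0.02 to 0.36; limma adjusted p = 0.382) and 0.27 ± 0.08 for KO over WT (interval 0.09 to 0.44; adjusted p = 0.112), a 1.20-fold difference. DKO and KO differed by -0.08 ± 0.08 (interval -0.25 to 0.10; adjusted p = 0.823). Smad3 (chr9:63646767-63757994) showed no such split. It had 2119, 1456 and 1617 normalized counts in DKO, 1682, 1668 and 2152 in KO and 1659, 1715 and 1874 in WT, with a single high mouse in each mutant group. Its log2 fold changes were -0.09 ± 0.15 for DKO over KO (interval -0.42 to 0.24), -0.03 ± 0.15 for DKO over WT (interval -0.36 to 0.30) and 0.06 ± 0.15 for KO over WT (interval -0.27 to 0.39). The adjusted p of Smad3 was 0.908, 0.955 and 0.870 for these comparisons.

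Smad7, the inhibitor of the type I receptor and also on chromosome 18, had 1900, 1789 and 1609 normalized counts in DKO, 1664, 1835 and 1355 in KO and 1437, 1723 and 1425 in WT. The groups overlapped, with KO 3 the lowest of all mice. DKO over WT was 0.21 ± 0.13 on the log2 scale (interval -0.07 to 0.49; limma adjusted p = 0.562), and KO over WT was 0.08 ± 0.13 (interval -0.21 to 0.36; adjusted p = 0.795).

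Tgfbi (chr13:56609523-56639562), a secreted matrix protein named for its induction by TGF-beta, had 331, 317 and 382 normalized counts in DKO mice, against 876, 848 and 395 in KO mice and 455, 373 and 474 in WT mice. KO 1 and KO 2 held about the same high level, KO 3 lay inside the WT range, and the highest DKO mouse lay just below the lowest KO mouse. These were the largest differences of any member in DKO against KO and in KO against WT. DKO over KO was -0.96 ± 0.27 on the log2 scale (interval -1.57 to -0.34), a fold of 0.516, with an unadjusted limma p of 0.00653 and an adjusted p of 0.215. KO over WT was 0.62 ± 0.27 (interval 0.01 to 1.24), a fold of 1.54, with an adjusted p of 0.273. DKO over WT was -0.33 ± 0.27 (interval -0.95 to 0.28; adjusted p = 0.683).

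The Tgfbi result rested on KO 3. Without that mouse, limma called Tgfbi lower in DKO than in KO, at a log2 fold change of -1.33 (adjusted p = 0.0110), and higher in KO than in WT, at 1.0 (adjusted p = 0.0184). It was then the only member called in either comparison, beside 155 and 396 called genes in all. Without KO 1 the values were -0.76 (adjusted p = 0.637) and 0.42 (adjusted p = 0.584), and without KO 2 they were -0.78 (adjusted p = 0.528) and 0.45 (adjusted p = 0.555). KO 1 and KO 2 share a mouse-name prefix that KO 3 does not have, so the prefix and the level cannot be told apart within KO. The summed macrophage and monocyte markers were highest in the same KO mice, with the exceptions given for Tgfb1. The 9 fibroblast and pericyte markers summed to 3912, 4491 and 4060 normalized counts in DKO, 5850, 5251 and 4444 in KO and 4911, 4400 and 4704 in WT, with none at 0 in any library. The part of either cell type in the Tgfbi values was not tested.

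**Figure D2:**
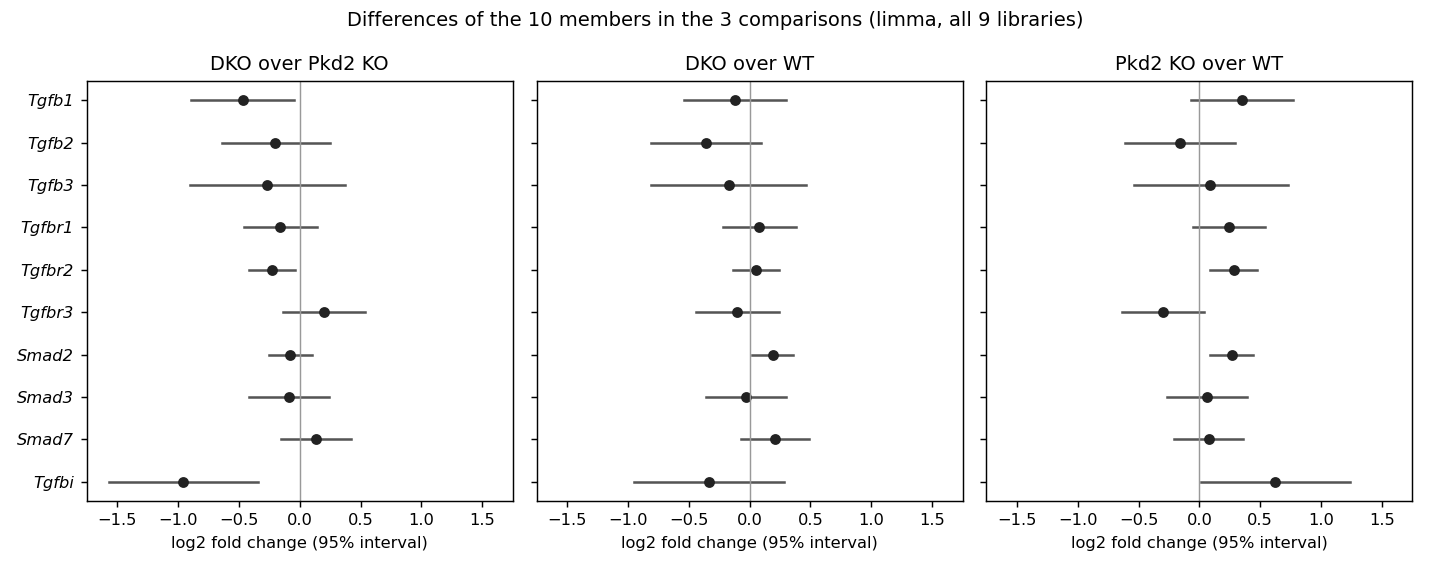
Log2 fold changes of the 10 members (points) with 95% intervals from limma over all 9 libraries (lines) for DKO over KO, DKO over WT and KO over WT, on 1 shared axis. Tgfbi had the estimates farthest from 0 in DKO over KO (-0.96) and KO over WT (0.62). Tgfbr2 and Smad2 had narrow intervals, which left out 0 in KO over WT (0.09 to 0.47 and 0.09 to 0.44), though neither gene was called.

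Within the KO group the members did not move together. Relative to the WT mean on the log2(normalized count + 1) scale, KO 1 and KO 2 stood at 1.02 and 0.97 for Tgfbi, 0.73 and 0.38 for Tgfb1 and 0.44 and 0.34 for Tgfbr1, whereas KO 3 stood at -0.13, -0.04 and -0.05 for the same genes. For Tgfbr2 and Smad2, KO 3 stood at 0.36 and 0.26, close to the 0.29 and 0.28 of KO 1. For Smad3 the order was turned round, with KO 3 at 0.30 and KO 1 and KO 2 at -0.05 and -0.07.

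**Figure D3:**
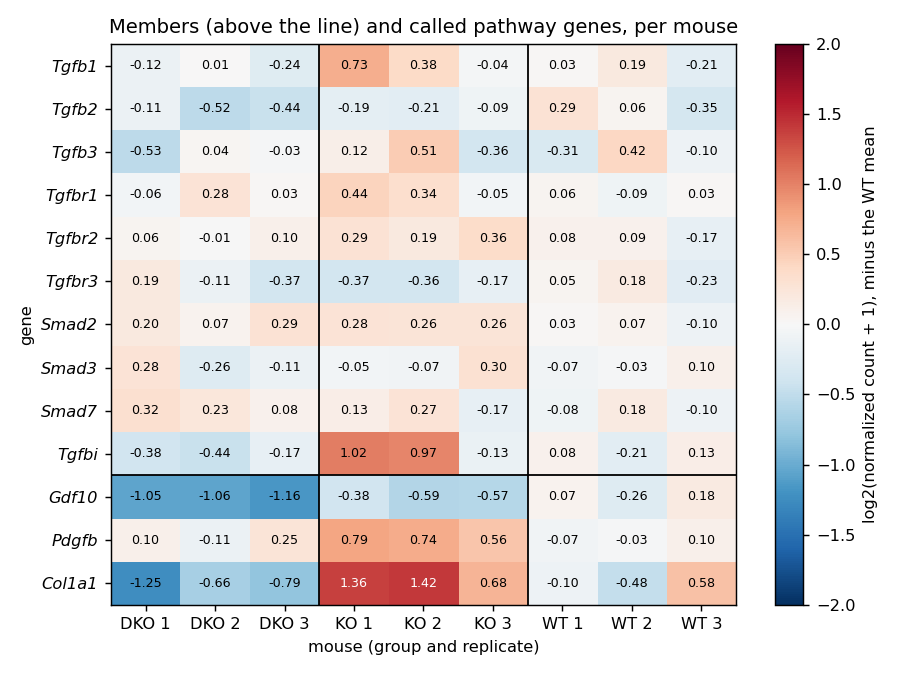
Log2(normalized count + 1) minus the WT mean for each mouse (columns, DKO, KO and WT with replicates 1 to 3) and gene (rows), with the 10 members above the line and the 3 called pathway genes below it, on a colour scale from -2 to 2. Tgfbi and Tgfb1 were high in KO 1 and KO 2 and not in KO 3, while Tgfbr2 and Smad2, neither of them called, stood at 0.19 to 0.36 in all KO mice.

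The genes whose pattern over the 9 libraries was most like a member's were listed by Pearson's r of log2(normalized count + 1), for the 4 members with the smallest unadjusted p. For Tgfbi these were Slc25a24 (r = 0.972), Tmsb10 (0.967) and Serping1 (0.963), and for Tgfb1 they were Flnc (0.969), Ptger4 (0.962) and Celf2 (0.954). For Smad2 they were Ube4b (0.967), Synj1 (0.959) and Nedd1 (0.952), and for Tgfbr2 they were Mas1 (0.984), Cdkn2c (0.974) and Gpr155 (0.963). The 9 points share groups and libraries, and each r is the highest of a search over all genes with a mean of at least 50, so it is a description only.

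Around the members, 7 lists held 127 other genes of the pathway, of which 125 had a row and all but 9 of these passed the filter. Each comparison called 1 of them, beside 0.394%, 0.229% and 2.40% of all genes in DKO against KO, DKO against WT and KO against WT. DKO against KO called Col1a1, lower in DKO, and DKO against WT called Gdf10, also lower in DKO. KO against WT called Pdgfb, higher in KO. At an unadjusted limma p under 0.05, 5 were higher and 24 lower in DKO than in KO, 5 were higher and 11 lower in DKO than in WT, and 15 were higher and 14 lower in KO than in WT. These are 25.0%, 13.8% and 25.0% of the tested pathway genes, beside 10.7%, 11.7% and 18.0% of all genes, so the share in DKO against WT was near that of all genes. Their median log2 fold changes were -0.08, -0.05 and 0.05 for these comparisons.

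Col1a1, which encodes a chain of collagen I, the main fibrillar collagen, had 404, 608 and 557 normalized counts in DKO, 2470, 2589 and 1543 in KO and 900, 693 and 1438 in WT. All DKO mice lay below all WT mice, and all WT mice below all KO mice. It fell in DKO relative to KO by 2.06 on the log2 scale (SE 0.29; limma adjusted p = 0.0335), while KO over WT was 1.15 ± 0.29 (adjusted p = 0.0791) and DKO over WT was -0.90 ± 0.29 (adjusted p = 0.284). Without KO 3, DKO over KO was -2.29 (adjusted p = 0.0188) and KO over WT was 1.39 (adjusted p = 0.0486). The call was lost without KO 1 (adjusted p = 0.113), KO 2 (0.139), DKO 1 (0.102), DKO 2 (0.0893), DKO 3 (0.0542) or WT 1 (0.0541). Of the 9 fibroblast and pericyte markers none was called, and 5 were lower in DKO than in KO at an unadjusted p under 0.05 (55.6%, beside 10.7% of all genes). These 5 were the matrix genes Lum, Col6a1, Col6a2, Mfap4 and Mfap5, whereas the receptors Pdgfra and Pdgfrb, the proteoglycan Cspg4 and the transcription factor Gli1 stood at 0.03, -0.28, -0.16 and -0.35. Their part in the Col1a1 result was not tested.

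Pdgfb, the B chain of platelet-derived growth factor and a mitogen of mesenchymal cells, had 803, 692 and 892 normalized counts in DKO, 1293, 1249 and 1102 in KO and 715, 732 and 802 in WT. It rose in KO relative to WT by 0.69 ± 0.11 on the log2 scale (limma adjusted p = 0.0173), with KO 3 also above all DKO and WT mice. DKO over KO was -0.61 ± 0.11 (adjusted p = 0.0597) and DKO over WT 0.08 ± 0.11 (adjusted p = 0.830). Without KO 3, DKO over KO was -0.68 and passed the threshold (limma adjusted p = 0.0449), and KO over WT was 0.76 (adjusted p = 0.0226). The call in KO over WT was lost without KO 1 (adjusted p = 0.0788), KO 2 (0.0781), WT 1 (0.0795) or WT 2 (0.0787). Gdf10, a ligand of the TGF-beta superfamily also known as BMP3b, had 133, 132 and 124 normalized counts in DKO, 214, 184 and 187 in KO and 292, 232 and 316 in WT. The 3 groups did not overlap, in the order DKO, KO, WT from low to high. It fell in DKO relative to WT by 1.09 on the log2 scale (SE 0.14; adjusted p = 0.0212), while DKO over KO was -0.58 ± 0.14 (adjusted p = 0.147) and KO over WT was -0.51 ± 0.14 (adjusted p = 0.103). That call was lost without DKO 1 (adjusted p = 0.0843), DKO 2 (0.0853), DKO 3 (0.0663) or WT 1 (0.139).

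**Figure D4:**
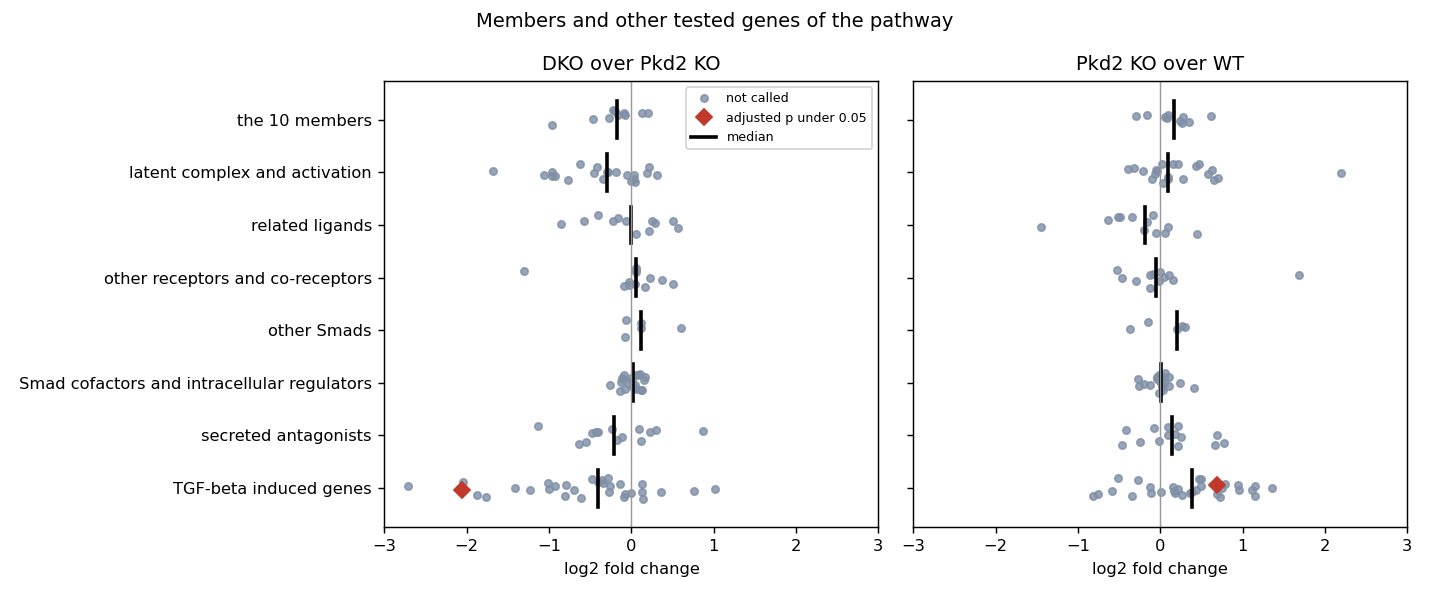
Log2 fold changes (horizontal axes) of DKO over KO and of KO over WT for each tested gene (points) of the 10 members and of 7 lists of other pathway genes (rows), with red diamonds for genes called by limma at an adjusted p under 0.05 and black bars for list medians. The median of the TGF-beta induced genes lay at -0.41 for DKO over KO and at 0.38 for KO over WT, and that of the Smad cofactors lay at 0.02 and 0.01.

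The list of 31 TGF-beta induced genes, which holds matrix, cytoskeletal and early response genes, had its median log2 fold change at -0.41 for DKO over KO, -0.21 for DKO over WT and 0.38 for KO over WT. In DKO against KO, 1 was called (Col1a1) and 13 were lower and 1 higher at an unadjusted limma p under 0.05, beside 10.7% of all genes in either direction. In KO against WT, 1 was called (Pdgfb), with 5 higher and 3 lower at the same threshold, which is 25.8% beside 18.0% of all genes. In DKO against WT none was called and 2 were lower, which is 6.45% beside 11.7%. Fibronectin, Fn1, is a textbook target and was picked out here after its values were seen. Fn1 had 519, 1141 and 827 normalized counts in DKO, 2437, 2365 and 1097 in KO and 1277, 1040 and 921 in WT (DKO over KO -1.23 ± 0.35 on the log2 scale, limma adjusted p = 0.211). Fn1 was thus high in KO 1 and KO 2, like Tgfbi. Once KO 3 was left out, limma called Fn1 in DKO against KO. Many genes of the list are made by fibroblasts, whose markers are given beside Tgfbi. The most abundant uncalled gene of the list, Tsc22d1, a transcriptional regulator, had 9594, 20948 and 15474 normalized counts in DKO, 11694, 13718 and 9184 in KO and 17069, 25345 and 16210 in WT.

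The latent complex and activation list, with 21 tested genes, had medians of -0.30, -0.13 and 0.10 in the order DKO over KO, DKO over WT and KO over WT, and none of its genes was called. At an unadjusted p under 0.05, 8 of them were lower and 1 higher in DKO than in KO (42.9%, beside 10.7% of all genes). For DKO against WT 5 were lower and 1 higher (28.6%, beside 11.7%), and for KO against WT 3 were lower and 4 higher (33.3%, beside 18.0%). Its most abundant gene, Furin, the protease that cleaves the TGF-beta precursor, was level at 15294 ± 747 normalized counts in DKO, 15006 ± 822 in KO and 15477 ± 2100 in WT (SD, n = 3 each). The 12 related ligands (median -0.18 for KO over WT) and 12 other receptors (median -0.05) had Gdf10 as their only call. At an unadjusted p under 0.05, 5 related ligands were lower and 0 higher in KO than in WT (41.7%, beside 18.0% of all genes), namely Inha, Gdf10, Gdf11, Bmp4 and Bmp5, with log2 fold changes of -0.63, -0.51, -0.49, -0.34 and -1.45. In DKO against KO 1 was higher and 1 lower, and in DKO against WT 2 were lower (16.7% each, beside 10.7% and 11.7%). Of the other receptors, 1 was higher and 2 lower in KO than in WT (25.0%, beside 18.0% of all genes). In DKO 2 were higher than in KO (16.7%, beside 10.7%) and 1 was higher than in WT (8.33%, beside 11.7%). These receptor counts are of few genes and near the shares of all genes. Their most abundant uncalled genes were Bmp7, a ligand that protects against fibrosis in mouse models, at 2184 ± 352 in DKO, 2528 ± 143 in KO and 2357 ± 81.8 in WT, and Tgfbrap1, a receptor-associated protein, at 4245 ± 94.4, 4346 ± 40.6 and 3900 ± 125 in the same groups.

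Among the 5 other Smads none was called, and at an unadjusted p under 0.05 0 passed in DKO against KO, 2 were higher in DKO than in WT (Smad4 and Smad9) and 2 higher in KO than in WT (Smad4 and Smad5). The last 2 counts are out of 5 genes, beside 11.7% and 18.0% of all genes. Smad9, a bone morphogenetic protein Smad, stood at 0.90 ± 0.33 on the log2 scale for DKO over WT (limma adjusted p = 0.336). Smad5, which carries bone morphogenetic protein signals, had 3344 ± 111 normalized counts in DKO, 3504 ± 177 in KO and 3042 ± 166 in WT. Smad4, the shared partner of Smad2 and Smad3 and named after its values were seen, resembled Smad2, with 2633, 2788 and 2636 normalized counts in DKO, 2884, 2980 and 2666 in KO and 2372, 2500 and 2192 in WT. All 6 mutant mice lay above all WT mice, at 0.19 ± 0.07 for DKO over WT (limma adjusted p = 0.351) and 0.27 ± 0.07 for KO over WT (adjusted p = 0.0940) on the log2 scale. The 21 Smad cofactors and intracellular regulators included no call, with log2 fold changes of -0.26 to 0.17 for DKO over KO, -0.37 to 0.26 for DKO over WT and -0.27 to 0.41 for KO over WT. At an unadjusted limma p under 0.05, 0, 1 and 2 of them passed in the same order, all higher. These are 0.00%, 4.76% and 9.52%, beside 10.7%, 11.7% and 18.0% of all genes. Wwp1, a ubiquitin ligase that acts with Smad7 and the most abundant of the 21, had 18817 ± 1317 normalized counts in DKO, 20173 ± 719 in KO and 17022 ± 593 in WT. The 14 secreted antagonists had medians of -0.21, -0.13 and 0.14 in the order DKO over KO, DKO over WT and KO over WT, with none called. At an unadjusted p under 0.05, 2 of them passed in each comparison (14.3%). Those passing were all lower in DKO, and 1 was higher and 1 lower in KO against WT. The shares of all genes were 10.7%, 11.7% and 18.0% in the same order, so the counts are near them. Bgn, biglycan, a matrix proteoglycan that binds TGF-beta, had 3688, 4524 and 4307 normalized counts in DKO, 6104, 7559 and 3816 in KO and 5406, 5078 and 5237 in WT, so KO 3 was again the low mouse of its group. With KO 3 left out, limma called Bgn in DKO against KO.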

How the data were processed

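Poly(A) RNA of 9 kidneys (3 mice per group, groups and numbers from the labels, which call the replicates biological) was measured. The deposited values are normalized counts per gene, a signal that the authors made with STAR 2.5.0, HTSeq 0.6.1 and DESeq2, per the submitters' processing notes. The sources used here do not give genome build, annotation or use of strand. No name prefix of mice occurs in more than 1 group.

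The members and lists were chosen with earlier results of these data known. With limma 3.58.1 in R 4.3.3, log2(normalized count + 1), a scale that understates changes of low genes, was fitted once for all 9 libraries, with a mean for each group and an intensity trend but no block. Genes with a mean of at least 10 entered, tests were two-sided, and intervals are 95%. The procedure was tested on simulated data. A single read was worth 0.906 to 1.13 normalized counts, and in those steps 100% of values were whole within 0.05. In WT 1 and KO 1 that value lay too near 1 to count as recovered, so edgeR 4.0.16 and DESeq2 1.42.0 were run on 7 libraries. Reads carry no molecular identifiers. Errors are those between mice, because the fit had a mean for each group of mice.

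Named genes were the members, Pkd2, Ift88, up to 4 called genes and the most abundant uncalled gene of each list, and the 3 genes most like a member for the 4 members with the smallest p, exceptions being marked. Mstn and Lefty2 were not analysed here, and the table lists Adgre1 as Emr1. Alternatives were pseudocounts of 0.1 and 10, no filter, a mean of at least 50, 3 scalings, no trend, a replicate block, fits of only the groups compared, array quality weights, leaving out each library, leaving out WT 3 and KO 3, and the count tests. A limma fit to the 7 libraries was added after seeing the data. Exon lengths are from GENCODE M21 (GRCm38), which may differ from the authors' annotation.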

Additional observations from a re-analysis of the deposited data

How the results depend on the processing

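Of 30 member differences (10 members, 3 comparisons), 23 were called under none of the 24 alternatives and 21 kept their sign under all of them. The 9 that changed sign had a log2 fold change of at most 0.17 in size. Array quality weights called 6 members in KO against WT (Tgfb1, Tgfbr1, Tgfbr2, Tgfbr3, Smad2 and Tgfbi, with 3222 genes called in all) and 1, Tgfbi, in DKO against KO. Leaving out WT 3 and KO 3 together called 1 member, Tgfbi, in each of these comparisons. Leaving out 1 library gave 0 to 1 called members in DKO against KO and in KO against WT, the 1 being Tgfbi without KO 3. In DKO against WT every alternative called 0.

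Of the other pathway genes, each comparison called 1. In DKO against KO the count was 15 with array quality weights, 15 without WT 3 and KO 3, 4 with DESeq2, 0 with edgeR, with limma on the same 7 libraries and with the replicate block, and 0 to 10 without 1 library, the highest being without KO 3. In DKO against WT it was 3 with DESeq2, 2 without WT 3 and KO 3, 0 with edgeR, limma on 7 libraries, the replicate block or only the groups compared, and 0 to 2 without 1 library. In KO against WT it was 30 with array quality weights, 8 without WT 3 and KO 3, 4 with DESeq2, 2 with a pseudocount of 10, a mean of at least 50, TMM or quantile scaling, 0 with edgeR and limma on 7 libraries, and 0 to 5 without 1 library, the highest being without KO 3. The fits by edgeR, DESeq2 and limma on 7 libraries all had fewer samples, yet DESeq2 called more of these pathway genes than the main fit. The cause of these changes was not tested.

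Signs turned for small differences. Tgfb3 in KO over WT was -0.02 with quantile scaling, -0.03 with edgeR and DESeq2 and -0.08 with limma on 7 libraries. Tgfbr2 in DKO over WT was -0.03 with array quality weights and without WT 3 and KO 3. Smad3 without WT 3 and KO 3 was 0.03 in DKO over KO, 0.02 in DKO over WT and -0.01 in KO over WT, and 0.01 in DKO over WT with array quality weights. Without 1 library, DKO over KO ranged from -0.25 to 0.03 for Smad3 and from -0.22 to 0.01 for Pkd2. DKO over WT ranged from -0.33 to 0.03 for Tgfb3, -0.02 to 0.15 for Tgfbr1, -0.03 to 0.10 for Tgfbr2, -0.24 to 0.04 for Tgfbr3, -0.19 to 0.08 for Smad3 and -0.01 to 0.18 for Pdgfb. KO over WT ranged from -0.12 to 0.32 for Tgfb3, -0.06 to 0.12 for Smad3 and -0.02 to 0.20 for Smad7.

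Deviations from the group means correlated at -0.18 to 0.24 over 9 pairs of same-numbered mice. Over 18 pairs of other numbers they correlated at -0.25 to 0.20. With 3 mice per group these values cannot show whether the numbers pair the mice. The replicate block called 0 members in each comparison, as did the main fit. Scaling moved the median of all genes by at most 0.01.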
